A study of Mus musculus with 14 samples.

Results

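Genes of myeloid granules and early myeloid differentiation were followed in single haematopoietic stem cells (HSCs) of mouse bone marrow. The 10 genes were Mpo, Elane, Prtn3, Ctsg, Cebpa, Irf8, Csf3r, Lyz2, Cst3 and Ly86. They were chosen by name and not by a rule on their level, but with earlier results of these data known. All 10 were matched among the 25832 gene IDs of the count tables. In these cells Prtn3, Cst3, Lyz2, Ly86 and Irf8 had counts in every plate, Mpo and Ctsg in plates 352W and 353W only, and Csf3r mainly in plate 351W. Between Phf19 KO and WT cells, edgeR's quasi-likelihood test called 0 of the 5 genes with enough counts to be tested, and 0 of them at an unadjusted p below 0.05, as did DESeq2; of all genes tested, edgeR called 0.0917%, 0.0306% as higher and 0.0612% as lower in KO cells.

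The cells were lineage-depleted marrow cells labelled as CD150-positive and CD48-negative, a surface phenotype of long-term HSCs. They were processed singly in the wells of 4 plates (350W, 351W, 352W and 353W) by MARS-Seq, a plate method that tags each captured polyadenylated RNA with a unique molecular identifier (UMI), so that molecules and not amplified copies are counted. The labels give the plates no genotype, but the cell names begin with WT or KO. The KO animals of the series lack Phf19, a Polycomb-associated protein, and the controls of its other assays carry the floxed allele. Whether the WT cells are such floxed controls, what deletes the allele, and the strain, age and number of animals are not stated in the labels. With the plate as a block, each p-value therefore reflects only how KO to WT differences varied between plates. The fit set the spread of each gene partly from that gene and partly from all genes tested. That spread between plates may be technical. On each plate WT cells had well numbers 1 to 96 and KO cells 97 to 192, and genotype and well position cannot be told apart.

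Primary granules are the first granules made in neutrophil and monocyte precursors. They store myeloperoxidase, encoded by Mpo, and the related serine proteases neutrophil elastase, proteinase 3 and cathepsin G, encoded by Elane, Prtn3 and Ctsg. Long-term stem cells are known for little of this content, which is gained as multipotent progenitors turn to the granulocyte and monocyte fate. Cebpa encodes the transcription factor that granulocyte and monocyte progenitors require, Irf8 one that directs monocyte and dendritic fates, and Csf3r the receptor for the granulocyte growth factor G-CSF. Lyz2 encodes lysozyme, Cst3 the cysteine protease inhibitor cystatin C, and Ly86 the MD-1 protein, which pairs with the Toll-like protein CD180.

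Of 768 wells, 716 held at least 500 UMIs and were kept, 381 WT and 335 KO, with 220821 to 510791 UMIs per plate and genotype; of the 52 wells left out, 49 were KO. Median UMIs per kept cell ran from 2230 to 5006, and KO cells were shallower than WT cells on each plate. No 2 wells had identical counts, although all 192 well numbers occur on each plate. The plates stand apart in progenitor markers. In counts scaled to a common library total (CPM), Flt3, a receptor gene of multipotent progenitors, was at 7.50 in 350W, 19.8 in 351W, 368 in 352W and 163 in 353W, and Dntt, which marks lymphoid-primed progenitors, was at 16.9, 14.1, 130 and 424. The transcript of Cd48, the protein that the sort excludes, had 1, 0, 111 and 35 UMIs in the same order. Summed stem cell markers, with 12 of 12 genes listed, were at 1689, 1641, 1287 and 1128 CPM. Of 8 neutrophil markers only Ltf, S100a9 and Mmp8 were listed in any table, and their sum was 2.83 to 7.84 CPM in the 4 plates, from at most 7 UMIs. Summed B and plasma cell markers were at 127, 275, 11905 and 2479 CPM.

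Sequences before the gene starts are shown for the granule genes, since Mpo and Ctsg had counts on the same plates. RefSeq promoters (build GRCm38.p6) were at hand for all 10 genes, and 4 short motifs were searched on both strands in the 250 bases before the start: GAGGAA, of the kind bound by the myeloid factor PU.1; TGTGGT, of the RUNX kind; TTGCNNAA, of the C/EBP kind; and TATAAA, the TATA box. The windows of the 4 granule protease and peroxidase genes are printed below with that of Csf3r, whose counts followed another pattern, and capitals mark the matches. Mpo lies at chr11:87793534-87793783 (plus strand), Ctsg at chr14:56102575-56102824 (minus strand), Prtn3 at chr10:79879417-79879666 (plus strand), Elane at chr10:79886062-79886311 (plus strand) and Csf3r at chr4:126024409-126024658 (plus strand, inside the annotated span of the gene).
Mpo: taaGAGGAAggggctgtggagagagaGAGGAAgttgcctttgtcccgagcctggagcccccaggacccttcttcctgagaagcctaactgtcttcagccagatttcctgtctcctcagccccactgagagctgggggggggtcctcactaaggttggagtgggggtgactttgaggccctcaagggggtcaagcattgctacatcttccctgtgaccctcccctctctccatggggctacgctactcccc
Ctsg: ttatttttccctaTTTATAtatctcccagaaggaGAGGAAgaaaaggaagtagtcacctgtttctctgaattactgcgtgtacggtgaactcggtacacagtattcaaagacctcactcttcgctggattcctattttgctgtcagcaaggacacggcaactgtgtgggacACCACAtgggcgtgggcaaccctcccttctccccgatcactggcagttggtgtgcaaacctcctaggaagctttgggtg
Prtn3: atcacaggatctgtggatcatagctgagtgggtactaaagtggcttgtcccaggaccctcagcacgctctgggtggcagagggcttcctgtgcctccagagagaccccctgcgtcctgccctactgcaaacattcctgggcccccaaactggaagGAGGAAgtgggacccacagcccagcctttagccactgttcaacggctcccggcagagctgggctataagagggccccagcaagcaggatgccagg
Elane: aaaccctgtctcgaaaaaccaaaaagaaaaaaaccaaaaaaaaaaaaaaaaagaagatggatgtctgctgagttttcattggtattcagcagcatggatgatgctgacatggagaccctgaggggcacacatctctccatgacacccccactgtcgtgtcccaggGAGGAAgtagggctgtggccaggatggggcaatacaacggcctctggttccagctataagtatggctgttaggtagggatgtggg
Csf3r: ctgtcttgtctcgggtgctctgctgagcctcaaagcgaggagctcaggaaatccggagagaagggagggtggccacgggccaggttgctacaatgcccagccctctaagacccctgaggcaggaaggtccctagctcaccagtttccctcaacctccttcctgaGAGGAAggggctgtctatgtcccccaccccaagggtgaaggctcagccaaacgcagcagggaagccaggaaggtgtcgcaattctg

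GAGGAA occurred in all 5 of these windows and in that of Cst3, beside 23.3% of 32851 RefSeq promoter windows. Mpo held it at -247 and at -224, counting back from the start, Ctsg at -216, Prtn3 at -95, Elane at -85 and Csf3r at -86. The RUNX motif, read on the other strand as ACCACA, lay in the windows of Ctsg (at -79) and Lyz2 (at -66), beside 14.0% of all windows. TATAAA lay at -30 in Cebpa and at -31 in Irf8, and as its reverse complement TTTATA at -237 in Ctsg, beside 12.4% of all windows. The C/EBP letters were in no window of the 10 genes, beside 9.56% of all. No measurement of factor binding was used here, and a match is a description of the letters alone.

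Mpo was present in 2 plates and had no count in the other two. It had 65 and 98 WT UMIs on 352W and 353W beside 35 and 75 from KO cells. In 350W and 351W the gene had no row in the tables used here, and the tables list no row that is 0 in every cell, so the level was taken as 0. By the exact 95% intervals a count of 0 allows up to 6.91 CPM in 350W and 5.22 CPM in 351W. The share it allows is up to 1.95% of 187 and 1.97% of 185 cells. The levels in 352W were 205 CPM (exact 95% Poisson interval 158 to 261) in WT and 158 CPM (110 to 220) in KO cells, and in 353W 192 CPM (156 to 234) in WT and 196 CPM (154 to 246) in KO cells. One WT well of 352W held 21 Mpo UMIs, and without it the WT level was 143 CPM, below and no longer above the KO level. The WT and KO intervals overlapped in both plates, and the intervals of the 2 plates overlapped as well. All intervals here cover counting error only. The split of the plates by Mpo is the split by the progenitor markers Flt3, Cd34, Cd48 and Dntt, and the B and plasma cell markers were higher on the same plates; the part of such cells in the result was not tested, and in summed counts more cells with the gene and more RNA per cell cannot be told apart.

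Ctsg followed the same plates. It had 23 and 28 WT UMIs on 352W and 353W beside 6 and 22 from KO cells, and no row in 350W and 351W. Over all cells the level was 53.9 CPM (36.1 to 77.3) in 352W and 56.0 CPM (41.6 to 73.8) in 353W. These levels rested on few wells: a single WT well gave 14 of the 29 UMIs of 352W, and without it the plate was at 28.4 CPM. The lower KO value of 352W, 27.2 CPM (9.97 to 59.1) against 72.4 CPM (45.9 to 109) in WT cells, includes that well on the WT side; without it WT cells were at 29.2 CPM.

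Prtn3 was the granule gene with counts in every plate, and its levels lay close together. WT cells had 74, 76, 82 and 134 UMIs in 350W, 351W, 352W and 353W, and KO cells 42, 57, 57 and 109 UMIs. As CPM over all cells this was 217 (180 to 261), 188 (158 to 223), 258 (217 to 305) and 272 (239 to 309). From the lowest plate, 351W, to the highest, 353W, each plate's interval overlapped that of the next in order, while the intervals of 351W and 353W did not overlap. Prtn3 therefore lacked the on and off pattern of Mpo and Ctsg, although the 350W and 351W levels were the lower ones.

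Elane, which lies beside Prtn3 on chromosome 10, was near absent. It had 10 UMIs in 2 WT cells of 352W, 9 of them in 1 well, and no count in KO cells or in the other plates. That is 31.5 CPM (15.1 to 57.9) in the WT cells of 352W, while the exact interval of the 0 in its KO cells reaches 16.7 CPM. The 2 intervals thus overlap. Without the single well the plate's level fell from 18.6 to 1.89 CPM.

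**Figure D1:**
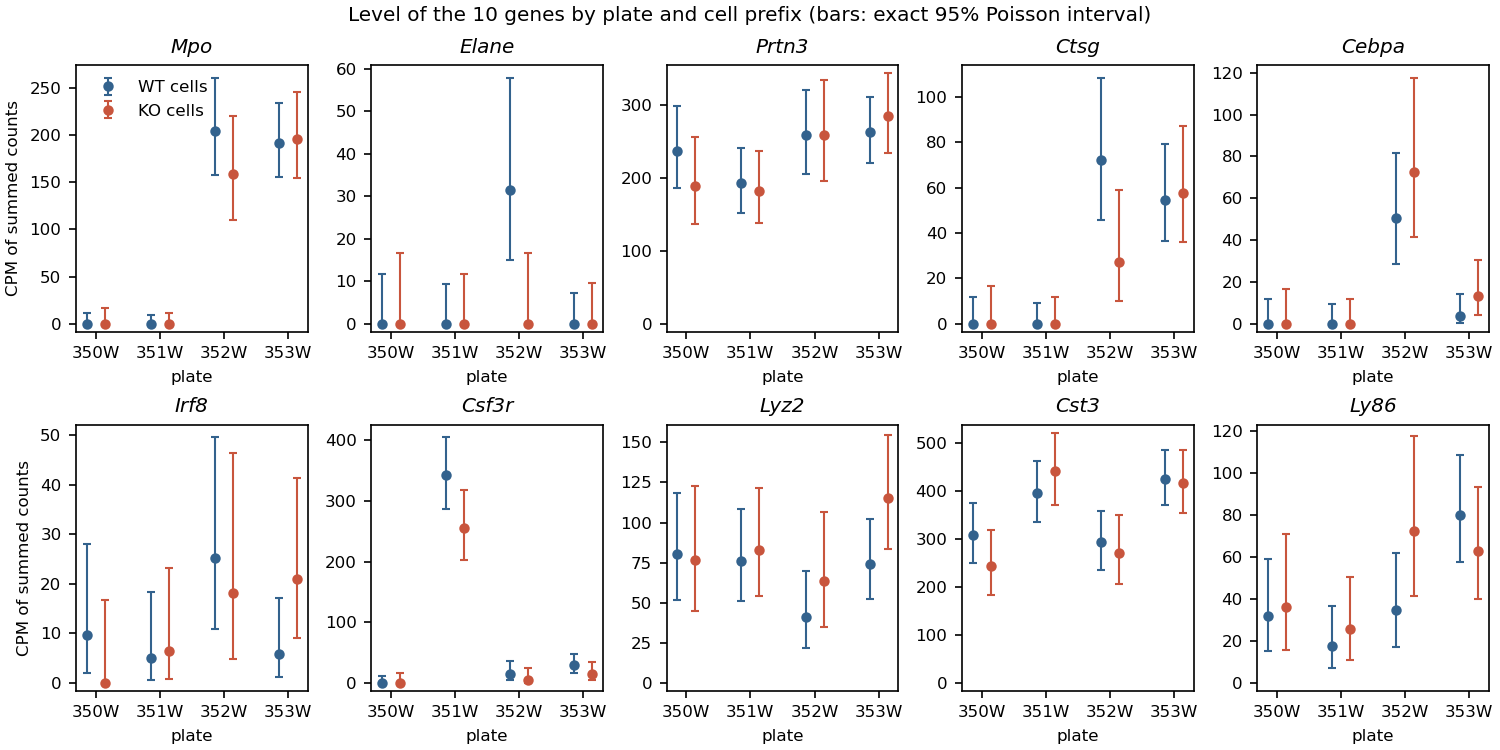
Level of each gene in CPM (y axis, from summed counts, a separate linear scale per gene) for WT cells (blue) and KO cells (red) of each plate (x axis), with exact 95% Poisson intervals as bars. Mpo and Ctsg are at 0 in 350W and 351W, Csf3r stands at 343 and 256 CPM in 351W and at or below 29.4 CPM elsewhere, and Prtn3 and Cst3 lie between 182 and 441 CPM in all 8 groups.

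The transcription factor genes were sparse. Cebpa had 16 WT and 16 KO UMIs on 352W, 2 and 5 on 353W, and no row in 350W and 351W. Its level over all cells was 59.4 CPM (40.6 to 83.9) in 352W and 7.84 CPM (3.15 to 16.1) in 353W. So Cebpa, unlike Mpo and Ctsg, also differed between 352W and 353W by more than their counting intervals. The 32 UMIs of 352W came from 22 cells, 19 of them with 1 UMI, but 9 of the 16 KO UMIs lay in 1 well. Irf8 had 3, 2, 8 and 3 WT UMIs on the plates in order, beside 0, 2, 4 and 8 from KO cells. Its levels of 5.62 to 22.3 CPM over all cells had overlapping intervals, and 6 of the 12 UMIs of 352W lay in 1 well, without which the plate was at 11.3 CPM.

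Csf3r had a plate pattern of its own. WT cells had 0, 135, 5 and 15 UMIs in 350W to 353W, and KO cells 0, 80, 1 and 6 UMIs. In 351W the level was 304 CPM (265 to 348) over all cells, against 11.1 CPM (4.09 to 24.3) in 352W and 23.5 CPM (14.6 to 35.9) in 353W, and 350W had no row. Unlike the Ctsg counts, these were spread over the plate: 117 of 185 cells had a UMI, no well had more than 7, and 32 wells were needed to hold 50% of the UMIs. The receptor was thus most frequent on a plate where Mpo, Ctsg and Cebpa had no count. On that plate Flt3 was at 19.8 CPM, and the neutrophil markers summed to 2.83 CPM, the lowest neutrophil sum of the 4 plates.

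Lyz2, Cst3 and Ly86 were found on every plate. Cst3 had 96, 156, 93 and 217 WT UMIs beside 54, 138, 60 and 159 from KO cells, which is 281 CPM (238 to 330), 416 (370 to 466), 284 (241 to 333) and 421 (380 to 466) over all cells. Plates 350W and 352W were low and 351W and 353W high, with no overlap between the intervals of those pairs, so Cst3 divided the plates differently from Mpo. The pair with the higher Cst3 CPM also had the higher median UMIs per cell, 3531 and 4679 against 2688 and 2782, and the part of depth was not tested. Lyz2 had 25, 30, 13 and 38 WT UMIs beside 17, 26, 14 and 44 from KO cells. Over all cells the level was 78.7 CPM (56.7 to 106) in 350W, 79.2 (59.9 to 103) in 351W, 50.1 (33.0 to 72.9) in 352W and 91.8 (73.0 to 114) in 353W. The lowest and the highest Lyz2 plates just failed to overlap, and the intervals of all other pairs of plates overlapped. Lyz2 lies next to its near-identical copy Lyz1, listed at 3.71 to 13.1 CPM, and no source used here says how shared reads were assigned, so the Lyz2 level is uncertain.

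Ly86 was lowest in the plates without Mpo. It had 10, 7, 11 and 41 WT UMIs beside 8, 8, 16 and 24 from KO cells. Over all cells the level was 33.7 CPM (19.99 to 53.3), 21.2 (11.9 to 35.0), 50.1 (33.0 to 72.9) and 72.8 (56.2 to 92.8) in 350W, 351W, 352W and 353W. The order was 351W, 350W, 352W, 353W, with overlap between neighbours, and 353W lay above the intervals of both 350W and 351W.

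The share of cells with a UMI gives the same plates a different look, and it moved with depth. Mpo was found in 17.2% of cells (exact 95% interval 11.8% to 23.7%) in 352W and in 36.0% (28.9% to 43.6%) in 353W, although the CPM of these plates were alike. When each cell was thinned to 1000 UMIs, leaving out 3, 7, 6 and 6 shallower cells of the plates in order, the shares were 9.20% and 5.33%. Within 352W the Mpo share was 4.76%, 9.52%, 19.0% and 34.9% from the shallowest to the deepest of 4 equal bins of cells, and within 353W 14.0%, 25.0%, 40.9% and 63.6%. The higher share of 353W is therefore not read as a difference between the plates.

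Csf3r kept its plate after thinning, with 63.2% of 351W cells as counted and 24.7% thinned, against 0.613% and 2.37% thinned in 352W and 353W. Prtn3 was found in 41.2%, 38.4%, 40.2% and 59.4% of cells as counted and in 16.3%, 14.6%, 17.8% and 20.1% after thinning. Cst3 was in 42.8%, 61.6%, 49.7% and 78.9% of cells as counted and in 25.0%, 25.3%, 19.6% and 33.1% thinned. A UMI of at least 1 of the 10 genes was present in 71.7%, 91.4%, 80.5% and 96.0% of cells. After thinning these shares were 42.4%, 60.7%, 45.4% and 60.9%. As counted, most sorted cells of each plate thus held a transcript of this group, while at 1000 UMIs a cell this was so in 351W and 353W but not in 350W and 352W.

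**Figure D2:**
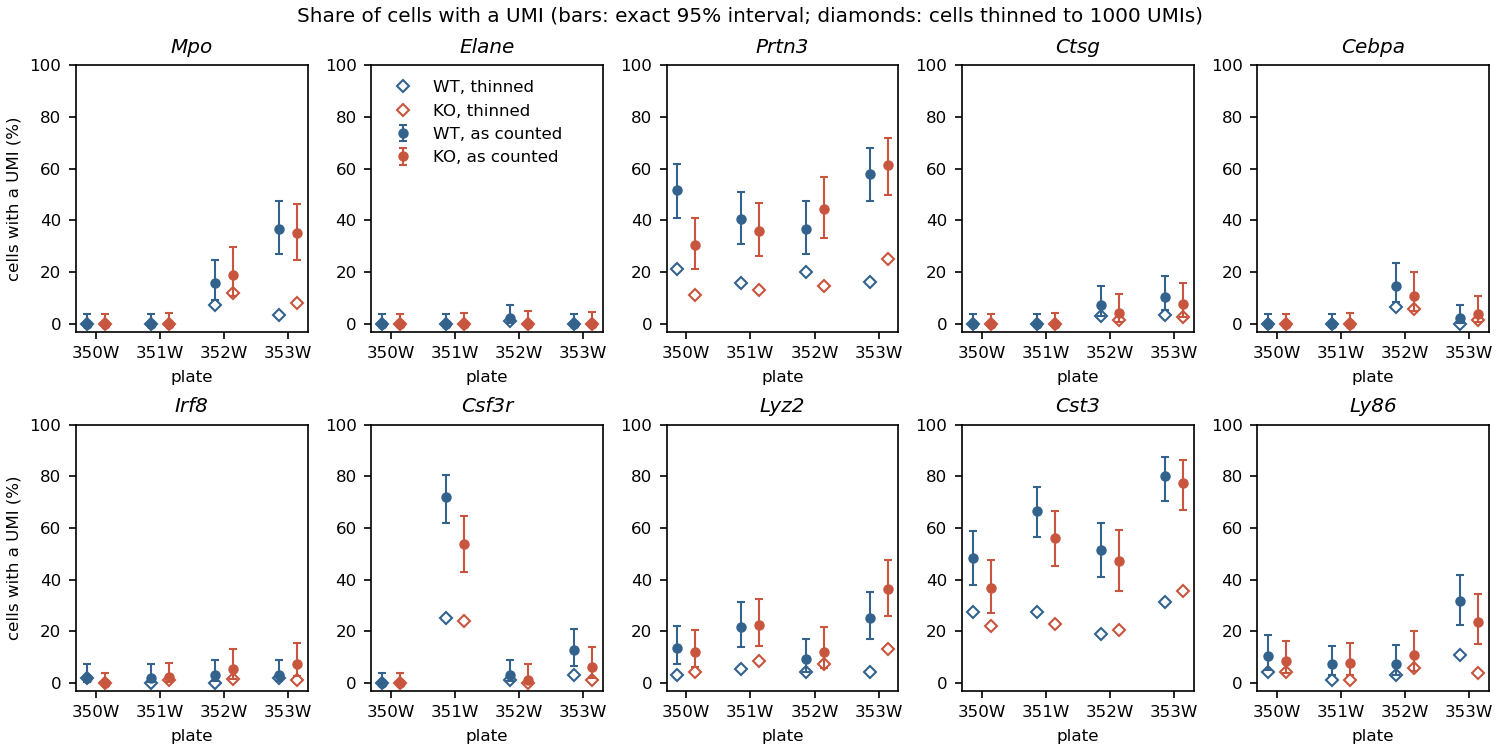
Share of cells with at least 1 UMI (y axis, percent) for each gene, plate (x axis) and genotype (WT blue, KO red), as counted (filled points with exact 95% intervals) and after thinning each cell to 1000 UMIs (open diamonds). Thinning lowers most shares and brings the Mpo shares of 352W (9.20% of all cells) and 353W (5.33%) together, while the Csf3r share of 351W stays apart.

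The 4 granule genes differed in how their UMIs were spread over cells. Over the 4 plates Mpo had 273 UMIs in 92 cells, Ctsg 79 in 26 cells, Prtn3 631 in 320 cells and Elane 10 in 2 cells. To hold 50% of the UMIs of 352W and 353W took 6 and 12 wells for Mpo and 2 and 3 wells for Ctsg, but 17 and 24 wells for Prtn3. In 353W Mpo had 2.75 UMIs per positive cell in 63 of 175 cells, and Prtn3 2.34 in 104 cells, so the 2 genes differed more in the number of positive cells than in the UMIs of each. The Ctsg UMIs lay in the fewest cells of the 3. In 352W Cebpa, with 32 UMIs, was in 22 cells, and Ctsg, with 29 UMIs, in 10 cells. Cst3 had 973 UMIs in 416 cells, and 23 and 34 wells held 50% of them.

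Among the 716 cells, the well that held most granule UMIs was WT well 33 of 352W, with 21 Mpo, 20 Prtn3, 14 Ctsg and 9 Elane UMIs. It was the single cell with all 4 granule genes, held 6 Irf8, 5 Ly86, 3 Cst3 and 1 Lyz2 UMIs, and had no Cebpa or Csf3r UMI. It was also the deepest well of its plate, with 9870 UMIs, and held 11 UMIs of stem cell markers, 10 of monocyte markers and 49 of B and plasma cell markers (plate median 19). The next well was KO well 118 of 353W, with 18 Prtn3, 15 Mpo and 10 Ctsg UMIs, 15126 UMIs in all, the deepest of its plate. It held 14 UMIs of stem cell markers (plate median 5), 19 of B and plasma cell markers (median 6), and 8 of megakaryocyte, 5 of monocyte and 3 of erythroid markers (median 0 each). So the 2 wells richest in primary granule transcripts carried different genotype prefixes and also held markers of several other cell types. These marker UMIs and their plate medians are not scaled for depth. The median cell held 2782 UMIs in 352W and 4679 in 353W, far fewer than these wells, and deep cells hold more of any gene. An excess of other markers in the 2 wells is therefore not read from them. No doublets were called, and the part of wells with more than 1 cell was not tested.

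**Figure D3:**
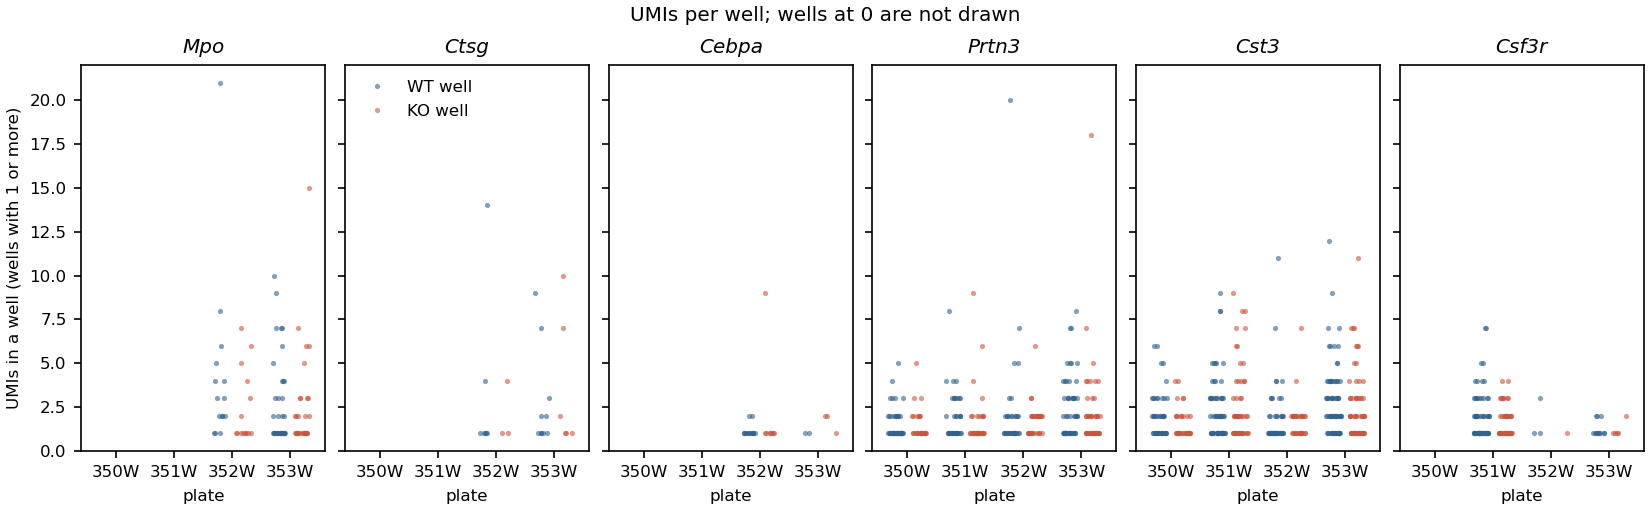
UMIs in each well (y axis, wells with 1 or more) of 6 genes, by plate (x axis) and genotype (WT blue, KO red), each point 1 well. Mpo and Ctsg show a few high wells, at up to 21 and 14 UMIs in 352W, while the Csf3r points of 351W form a dense column of at most 7 UMIs.

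Mpo, Ctsg and Prtn3 were met in the same cells more often than their shares alone would give. Cells with at least 2 of the 4 granule genes numbered 24 in 352W and 48 in 353W, and those with at least 3 numbered 3 and 12. Mpo and Ctsg were found together in 18 cells, where the product of their shares gives 7.48 cells and the same product taken within 4 bins of cell depth gives 10.8. By plate this was 6 cells against 2.30 in 352W and 12 against 8.50 in 353W. Deep cells hold more of any gene, so the product within depth bins is the closer reference, and the ratio to it was 1.67.

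Mpo with Prtn3 was found in 66 cells against 55.6 (ratio 1.19), and Prtn3 with Ctsg in 18 against 15.7 (ratio 1.15). Ctsg with Ly86 was found in 11 cells against 6.67, and Mpo with Ly86 in 29 against 23.1. Mpo with Cst3, at 70 cells against 70.0, and Prtn3 with Cst3, at 198 against 198.8, met the product. Csf3r with Prtn3 was found in 60 cells against 57.1 and Mpo with Csf3r in 7 against 6.93. Among the 45 pairs, 25 had a product of shares of at least 5 cells. Their ratios ran from 0.808 to 1.67 with a median of 1.05, 19 of them above 1. The lowest ratio of these 25 was that of Prtn3 with Cebpa, found in 10 cells against 12.4. These counts describe cells of the same plates and carry no test, and bins of depth leave some spread of depth within them.

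**Figure D4:**
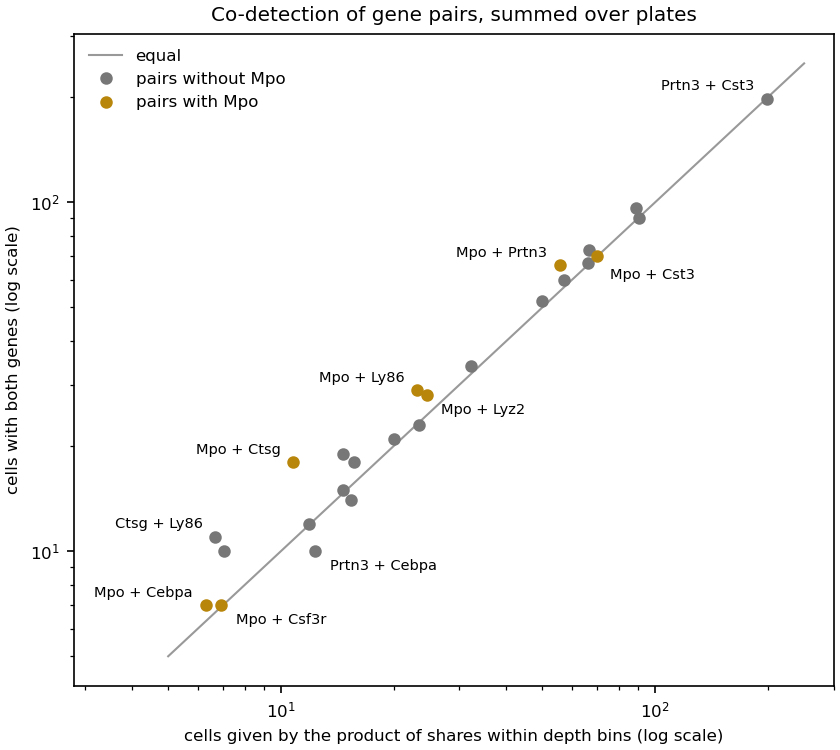
Number of cells with both genes of a pair (y axis, log scale) against the number given by the product of their shares within 4 bins of cell depth (x axis, log scale), for the 25 pairs whose product of shares was at least 5 cells, summed over plates. The line marks equality, and Mpo with Ctsg, at 18 cells against 10.8, lies farthest above it by ratio.

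Cells with a Mpo UMI were set beside cells of the same plate without one. In 352W these were 29 cells (median 4028 UMIs) and 140 cells (median 2607.5 UMIs), and in 353W 63 cells (6313) and 112 cells (3947.5). In CPM, which scale for depth, Ctsg was at 193 in Mpo-positive and 9.77 in Mpo-negative cells of 352W, and at 112 and 10.2 in those of 353W. Prtn3 was at 425 and 205 CPM in 352W and at 325 and 228 CPM in 353W. Of these 2 genes only Prtn3 in 353W had overlapping counting intervals, 272 to 386 against 188 to 275 CPM. Both serine protease genes were thus higher in the Mpo-positive cells of both plates. Cst3 was not, with 240 against 298 CPM in 352W and 427 against 416 CPM in 353W. Hlf, a transcription factor gene of stem cells, was at 69.6 against 225 CPM in 352W and at 171 against 222 CPM in 353W, lower on the Mpo-positive side of both. Its intervals overlapped in 353W and not in 352W. Of the other stem cell markers set beside it, Mecom was at 77.3 against 103 CPM and 122 against 135 CPM, with overlapping intervals. Procr kept no direction, at 30.9 against 14.7 CPM in 352W, from 4 and 6 UMIs, and 12.4 against 46.9 CPM in 353W. Flt3 did not keep a direction, at 333 against 379 CPM and 191 against 141 CPM. Irf8 was at 69.6 against 7.33 CPM in 352W and 17.4 against 8.15 CPM in 353W, from at most 9 UMIs in each group of cells. Without WT well 33, a choice made after seeing the data, the Mpo-positive cells of 352W were at 92.1 CPM of Ctsg, 293 CPM of Prtn3 and 25.1 CPM of Irf8; without KO well 118, those of 353W were at 90.4 CPM of Ctsg and 292 CPM of Prtn3. By these values the 2 protease genes were still the higher ones in Mpo-positive cells, but no intervals were computed without the wells. These are values of pooled cells with no test, since cells are not replicates.

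The comparison of KO with WT cells asked whether loss of Phf19 went with a change of these genes. Each plate gave 1 WT and 1 KO sum of counts, and the model held the plate as a block. Mpo, Prtn3, Cst3, Lyz2 and Ly86 had enough counts to be tested, and 0 of these 5 were called by edgeR's quasi-likelihood test at a Benjamini-Hochberg adjusted p below 0.05. At an unadjusted p below 0.05 the count was 0 as well, beside 6.08% of all 6541 genes tested, and DESeq2 called 0 of the 5, beside 0.0153% of all genes. The 5 fitted log2 fold changes had a median of -0.05, and that of all genes tested was -0.0041.

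Mpo was at -0.14 on the log2 scale (edgeR adjusted p = 0.961, SE 0.256), resting on 352W and 353W. Prtn3 was at -0.05 (SE 0.136, edgeR adjusted p = 0.969), with a lower KO level in 2 of 4 plates. Cst3 was at -0.05 (SE 0.119, edgeR adjusted p = 0.965), lower in KO in 3 of 4 plates by CPM. For these 3 genes the fitted difference was smaller than its standard error. Lyz2 was at 0.34 (SE 0.239, edgeR adjusted p = 0.868), with KO levels of 76.7, 83.2, 63.4 and 115 CPM against 80.2, 76.1, 40.9 and 74.4 CPM in WT cells, higher in 3 of 4 plates. Thinned to equal depth, 4.44%, 8.43%, 7.35% and 13.2% of KO cells had a Lyz2 UMI against 3.19%, 5.26%, 4.21% and 4.30% of WT cells, from at most 10 cells each and with overlapping exact intervals on each plate. Ly86 was at 0.25 (SE 0.336, edgeR adjusted p = 0.954), higher in 3 of 4 plates. Prtn3, Irf8, Cst3, Lyz2 and Ly86 had counts on every plate, and by CPM none of them moved in 1 direction on 4 of 4 plates. Of all genes tested, 7.75% did so downwards and 7.83% upwards. Mpo, Elane, Ctsg and Cebpa were at 0 in both genotypes of 350W and 351W, and Csf3r in both of 350W. These genes could not move on 4 of 4 plates. The direction turned when 1 plate was left out for 3 genes: without 350W Prtn3 was at 0.03 and Cst3 at 0.03, and without 352W Ly86 was at -0.02.

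**Figure D5:**
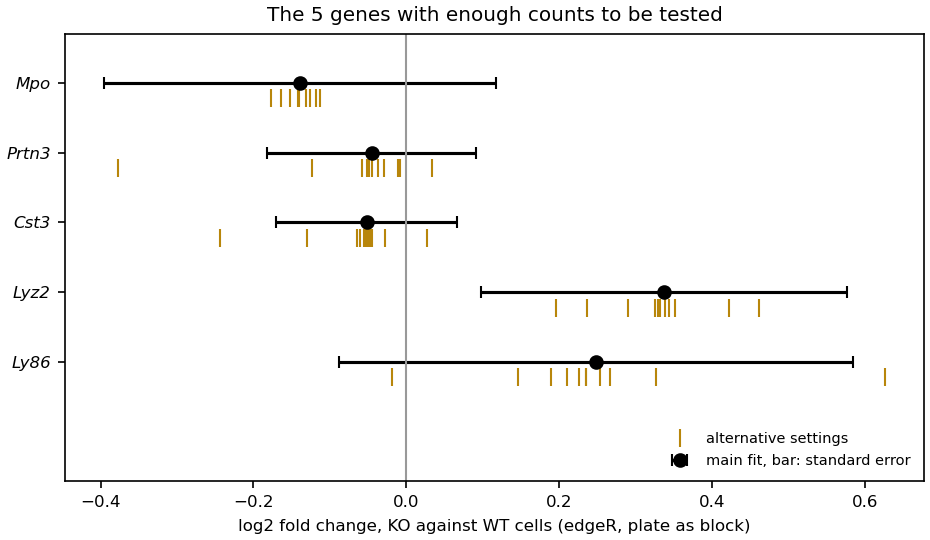
Log2 fold change of KO against WT cells (x axis) for the 5 genes tested (y axis), as fitted by edgeR with the plate as a block (black points, bars of 1 standard error) and under the alternative settings (gold ticks). The bars of Mpo, Prtn3, Cst3 and Ly86 reach across 0, and the ticks of Prtn3, Cst3 and Ly86 fall on both sides of it.

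The other 5 genes had too few counts for that fit. All 10 entered a fit with no filter on low counts, in which 0 of the 10 were called and 0 had an unadjusted p below 0.05. Csf3r, at 343 CPM (287 to 405) in WT and 256 CPM (203 to 318) in KO cells of 351W, was lower in KO cells on 3 of 3 plates with counts, and fitted at -0.58 on the log2 scale (edgeR adjusted p = 0.992, SE 0.323). In 351W its share was 71.9% (61.8% to 80.6%) of WT and 53.9% (43.0% to 64.6%) of KO cells, but 25.3% and 24.1% after thinning. The WT to KO gap in its share was thus smaller at equal depth. Cebpa was at 0.85 (SE 0.665), Ctsg at -0.48 (SE 0.498) and Irf8 at 0.18 (SE 0.662) on the log2 scale, all with an edgeR adjusted p of 0.992. Elane, with 10 WT UMIs and 0 KO UMIs in a single plate, gives no usable fold change.

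Related genes were taken as lists: primary granule, secondary and tertiary granule, myeloid transcription factor, myeloid cytokine receptor, and monocyte, macrophage and dendritic genes. Of the primary granule list 14 of 15 genes were listed in a table and 10 were tested. EdgeR called 0 of them in either direction and 1 had an unadjusted p below 0.05, beside 0.0917% and 6.08% of all genes tested. Their median log2 fold change was -0.07, with 8 of 10 below 0, beside 50.7% of all genes tested. Srgn, which encodes the granule proteoglycan serglycin, was at 1334, 872, 943 and 994 CPM in 350W to 353W, and its KO to WT difference was 0.02 on the log2 scale (edgeR adjusted p = 0.976). Plac8 was at 22.5, 46.7, 550 and 101 CPM, low where Mpo was at 0, and its KO to WT difference was -0.61 on the log2 scale (edgeR adjusted p = 0.743). Calr, the chaperone calreticulin, was at 133, 242, 100.3 and 233 CPM.

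Later granule stages were close to empty. Of 13 secondary and tertiary granule genes 8 were listed, summing to 22.5, 24.1, 65.0 and 49.3 CPM, and none had enough counts to be tested. Camp, Ngp, Lcn2, S100a8 and Mmp9 were listed in no table used here. The highest of the list by mean CPM, Cybc1 and Cybb, which act in the phagocyte oxidase, reached 26.9 and 18.6 CPM at most.

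Of 17 myeloid transcription factor genes 8 were tested and 0 called by edgeR, beside 0.0917% of all genes tested. At an unadjusted p below 0.05 there was 1, beside 6.08% of all genes, and 7 of 8 were below 0, beside 50.7%. The median log2 fold change was -0.24. Tcf4, Etv6, Runx1 and Myb led the list by CPM, and Tcf4 was at 420, 439, 316 and 509 CPM. Cebpb, a relative of Cebpa, was at -1.09 (SE 0.369, edgeR adjusted p = 0.653). Of 9 cytokine receptor genes only Cx3cr1 was tested, at -0.34 (edgeR adjusted p = 0.881) and not below an unadjusted p of 0.05, and Csf1r, the receptor of the monocyte growth factor, was at 7.50, 7.07, 16.7 and 16.8 CPM. Of 22 monocyte, macrophage and dendritic genes 10 were tested and 0 called by edgeR, with a median of -0.14. At an unadjusted p below 0.05 there was 1 and 7 of 10 were below 0, beside 6.08% and 50.7% of all genes tested. The lowest adjusted p of that list was that of Cd74, the invariant chain of antigen presentation, at -0.57 (SE 0.139, edgeR adjusted p = 0.323). Psap, which encodes the precursor of the lysosomal saposins, was at 61.8, 519, 59.4 and 123 CPM, highest like Csf3r in 351W. DESeq2 called 1 gene in all, and 0 genes of any of these lists.

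Markers of B and plasma cells differed between KO and WT cells on the plates that held Mpo. Their sum was 13494 CPM in WT and 9619 CPM in KO cells of 352W, and 3473 and 1151 CPM in those of 353W, against 151 and 94.7 CPM in 350W and 256 and 297 CPM in 351W. Ighm, the heavy chain gene of immunoglobulin M, was the only gene of the lists that edgeR called, lower in KO cells at -1.10 ± 0.181 (log2, SE; adjusted p = 0.0246). DESeq2 gave it an adjusted p of 0.9999, and edgeR after thinning gave -0.60 with an adjusted p of 0.414. Ighm rests on 352W and 353W, since it had 4 UMIs in 350W and 0 in 351W. The part of these cells, or of their RNA, in the KO to WT values of the 10 genes was not tested.

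Likeness was measured over the 8 plate and genotype sums, among 9751 genes with at least 50 UMIs, by Pearson's r of log2(CPM + 10). Nearest to Mpo were Cd34 (r = 0.991), Neil3 (0.984) and Ctsg (0.983), and nearest to Ctsg were Mpo, Cd34 (0.981) and Neil3 (0.976). Cd34, a surface marker that rises from stem to progenitor cells, was at 26.2, 35.4, 284 and 353 CPM in 350W to 353W. Csf3r was most like Sh3rf1 (r = 0.987), Gm1840 (0.986) and Zfp704 (0.984), and Sh3rf1 was at 15.0, 388, 26.0 and 34.7 CPM. Prtn3 was most like Myo5a (0.986), Cep192 (0.967) and D5Ertd615e (0.955). Cst3 was nearest to Ap1s1 (0.986), Uqcrc1 (0.981) and Nme6 (0.975), Lyz2 to Ptn (0.979), Ccdc30 and Rbm10 (0.966 each), and Ly86 to 2310009A05Rik (0.969), Gm24588 (0.967) and Gm20532 (0.961). The sums share plates and depth and are only 8, so these are descriptions without a test. Mpo and Csf3r had r = -0.30 with each other, and Mpo and Prtn3 0.880.

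Prtn3, Elane and Cfd, which encodes the serine protease complement factor D (adipsin), follow each other on chromosome 10 of GRCm38.p6, with 3137 bases between Prtn3 and Elane and 2636 between Elane and Cfd. Prtn3 (79879667 to 79883174) had 631 UMIs in the 4 plates, Elane (79886312 to 79888216) had 10, and Cfd was listed in no table used here. On the other side of Prtn3, Plppr3 was at 56.2, 38.2, 130 and 98.5 CPM. So the neighbours Prtn3 and Elane had unequal counts in the same cells, as UMIs and not per length. In the annotation Mpo overlaps Gm34064 and Csf3r overlaps Gm32908, and no source used here says whether counting used strand, so reads of these pairs cannot be told apart.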

How the data were processed

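MARS-Seq tables of 4 plates were used. They hold whole-number counts per gene ID and well, deposited by the authors without normalization; that they count UMIs follows from the protocol named in the labels. The submitters' processing notes name the build GRCm38.p4 and FastQC; no source used here gives the aligner, the counter or their versions. Symbols were found for 25714 of 25832 gene IDs. A gene without a row in a table was taken as 0 there. The ChIP-seq lists and the RNA-seq and ATAC-seq samples of the series were not analysed here.

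Wells with 500 or more UMIs were kept, with no doublet calling. WT and KO were read from the cell names. Kept counts were summed per plate and genotype (8 sums), expressed as CPM with exact Poisson intervals, and fitted in R 4.3.3 by the quasi-likelihood test of edgeR 4.0.16 (plate as a block, TMM, filterByExpr) with Benjamini-Hochberg adjustment over 6541 genes and a threshold of 0.05. Standard errors (SE) were derived from each fold change and its F statistic (change over root F). The WT and KO sums of a plate deviate together from their group means (r of 0.569 to 0.664 over these genes). Shares have exact Clopper-Pearson intervals at 95%. Alternatives were DESeq2 1.42.0, library totals, no gene filter, no block, other cell filters, thinning to 1000 UMIs, and leaving out plates or the highest wells. Python 3.11.15 was used.

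The 10 genes, the gene lists and the tests were chosen with earlier results of these data known. Beside the 10 genes, the text names list genes that pass the test and up to 4 per list with the highest mean CPM, for each of the genes with 50 or more UMIs the 3 most alike in log2(CPM + 10), and neighbours in the annotation. Other list genes were named after their values were seen. A further member of the progenitor marker list, and the sum over that list, are not reported here. Precision is set by 220821 to 510791 UMIs per sum: the exact 95% interval of a count of 0 reaches up to 7.22 to 16.7 CPM. Promoter windows come from RefSeq (GRCm38.p6), whose coordinates are of that build and not of the counting.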

Additional observations from a re-analysis of the deposited data

Results flagged for a closer look

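Among the 4 plates, a plate far from the others was looked for in 20 groups of values, and chance alone gives about 1 in 20 such groups. Plate 352W stood apart in the CPM of Elane (18.6) and Cebpa (59.4), and plate 351W in that of Csf3r (304). In the CPM of KO minus WT cells, 352W stood apart for Mpo (-46.1), Elane (-31.5) and Ctsg (-45.2), and 351W for Csf3r (-86.6). For Mpo, Elane, Ctsg and Cebpa at least 2 plates are at 0, so that a single plate with counts is easily far from the rest. The differences of 352W rest on 1 WT well, well 33: without it KO minus WT was 15.6 CPM for Mpo, -2.07 CPM for Ctsg and -3.25 CPM for Elane.

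Wells left out for holding under 500 UMIs also held counts. Prtn3 had 4 UMIs in the 23 left-out wells of 352W, which is 516 CPM of their 7749 UMIs, beside 258 CPM in the kept cells. Cst3 had 8 UMIs in the 17 left-out wells of 353W, which is 1762 CPM of their 4541 UMIs, beside 421 CPM in the kept cells, and 7 of the 8 lay in 1 KO well.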

How the results depend on the processing

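Called genes among the 10 numbered 0 under all 12 alternatives, 7 of the 10 at most being tested outside the fit without a gene filter. Among 55 fold changes under alternatives, 52 kept their direction. Those that reversed were Prtn3 (0.0336) and Cst3 (0.0277) without replicate 1 (350W) and Ly86 (-0.0181) without replicate 3 (352W); the cause was not tested. Without WT well 33, an alternative chosen after seeing the data, the KO minus WT difference of Mpo in 352W turned from -46.1 to 15.6 CPM. Ighm was not called with DESeq2, with no replicate block (adjusted p = 0.9996), with all wells (0.0501) and after thinning, and was not tested without 352W or without 353W. Leaving out a plate moved Prtn3 to -0.124 at the lowest (without 353W) and Cst3 to -0.129 (without 351W). Over all alternatives the log2 fold changes ran from -0.18 to -0.11 for Mpo, -0.38 to 0.03 for Prtn3, -0.24 to 0.03 for Cst3, 0.20 to 0.46 for Lyz2 and -0.02 to 0.63 for Ly86, with edgeR or DESeq2 adjusted p from 0.854 to 0.9999. No fit left out WT well 33 alone, since the fit without the highest wells dropped 1 well from each WT and KO sum. In 353W the KO minus WT difference of Mpo was 4.32 CPM, so the negative Mpo fits are not read as a stable direction. With no replicate block 0 of the 10 and 0 of all genes were called, and the block changed no call among the 10. Calls over all genes were 6 in the main model, 1 with DESeq2, 26 with no gene filter, 3 with all wells, 3 after thinning (1607 genes tested) and 2 to 12 without a plate. Of 160 CPM values 11 moved, 7 when CPM were averaged over cells and 4 without the highest well, and 28 of 80 shares moved, all by thinning, which lowers the UMIs per cell. After thinning only Prtn3 and Cst3 had enough counts to be tested. Depth limits Elane, Irf8, Cebpa and Ctsg most, at 10 to 79 UMIs in all.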

Other observations

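Genes of the myeloid lists outside the 10, named here after their values were seen, differed between the plates in both directions. Summed over whole lists the plates differed less: the primary granule list was at 2011, 1841, 2455 and 2171 CPM in 350W, 351W, 352W and 353W. Srgn alone gave 1334, 872, 943 and 994 CPM of these sums, the largest part in each plate. The list was not summed without Srgn, so the likeness of the sums is not one of the granule genes in general. The monocyte, macrophage and dendritic list was at 1177, 1464, 1352 and 1203 CPM. Cst7, which encodes cystatin F of leukocyte granules, was at 0, 0, 44.6 and 102 CPM in 350W, 351W, 352W and 353W. Ncf1, a subunit of the phagocyte oxidase, was at 0, 0, 22.3 and 4.48 CPM, from 12 and 4 UMIs. Ly6d, a marker of lymphoid-primed progenitors, was at 0, 0, 76.1 and 13.4 CPM. Ly96, whose MD-2 protein pairs with Tlr4 as MD-1 of Ly86 pairs with CD180, was at 0, 0, 208 and 7.84 CPM, with 79 of 169 cells positive in 352W. Serpinb1a, an inhibitor of the granule proteases, was at 16.9, 12.7, 160 and 54.9 CPM. Other genes of these lists were lower in 352W and 353W. H2-Aa, a class II antigen presentation gene, was at 317, 238, 22.3 and 60.5 CPM, and its relative H2-Eb1 at 112, 83.5, 33.4 and 45.9 CPM. Cd63, which encodes a granule membrane tetraspanin, was at 131, 208, 26.0 and 69.4 CPM, Gstm1 at 114, 191, 52.0 and 70.5 CPM, and Cd9 at 127, 106, 65.0 and 84.0 CPM. These values carry no test between plates.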
